A study of Mus musculus with 4 samples.

Results

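The E2 ubiquitin-conjugating enzymes are the middle step in the transfer of ubiquitin, a small protein that cells attach to other proteins. An E1 enzyme activates ubiquitin, an E2 enzyme takes it over on a cysteine of its catalytic core, and an E3 ligase brings the loaded E2 enzyme to a substrate. The E2 enzyme often decides through which lysine ubiquitin molecules are joined: chains through lysine 48 lead to the proteasome, and chains through lysine 63 serve signalling and repair. In B cells, lysine 63 chains made by Ube2n are known for passing signals from CD40 and Toll-like receptors to NF-kappaB, and E2 enzymes of the endoplasmic reticulum (ER) serve the disposal of misfolded secretory proteins. The E2 genes were taken by symbol, as all genes named Ube2 followed by a letter and any further letters or digits, without pseudogenes whose symbol holds -ps. This gave 40 of the 55401 genes listed.

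RNA was sequenced from splenic B220+ B cells, sorted from C57BL/6J mice. The sorting marker B220, a CD45 isoform, is found on most mouse B cells. The 4 libraries comprised 2 labelled NSD1 B WT (Mb1-Cre+ NSD1+/+) and 2 labelled NSD1 B KO (Mb1-Cre+ NSD1fl/fl). Mb1-Cre is a Cre recombinase expressed from the Cd79a gene, active in B lineage cells from an early stage, and both genotypes carried it. In NSD1 B KO mice it removes floxed exons of Nsd1, which encodes a methyltransferase for lysine 36 of histone H3. No treatment is named for these cells, and the mice were 7 to 9 weeks old and of both sexes according to the Methods, which set aside younger mice for another experiment and tie neither age nor sex to a library. Nor do the sources used here say whether the 2 libraries of a genotype came from different mice, so each p measures the spread between these libraries, which may be technical. The comparison of NSD1 B KO with NSD1 B WT asks which genes differ in B cells that develop without intact Nsd1.

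The libraries held between 6769118 and 7566834 counts on genes. Nsd1 itself had 497 and 480 counts in NSD1 B WT against 284 and 280 in NSD1 B KO, where the count covers the whole gene and not the floxed exons alone. The 6 B cell markers, among them Cd79a, Cd79b, Ptprc, Ms4a1 and Cd22, were counted in every library, 4 of them were lower in NSD1 B KO, and their summed level was 12537 to 12768 CPM (counts scaled by TMM to a common library size) in NSD1 B WT against 11102 to 12095 in NSD1 B KO. Markers of other cells moved as well, in data where 37.1% of all tested genes were called higher and 41.1% lower. Of 6 erythroid markers 5 were tested and 5 were higher in NSD1 B KO, with a summed level of 35.6 to 39.6 CPM in NSD1 B WT against 1690 to 1944 in NSD1 B KO. Of 6 macrophage and neutrophil markers 4 were higher and 2 lower (4569 to 4672 CPM against 5722 to 6072). Most of this sum was Lyz2 (4446 and 4537 CPM against 5891 and 5542). Csf1r, Adgre1 and S100a9 were higher as well, while Itgam and S100a8 were lower. Of 5 T cell markers 2 were tested and both were higher (23.9 to 26.9 CPM against 49.8 to 52.0), with Cd4 and Cd8a at 0. Cd3e, too low to test, had 4 and 3 counts in NSD1 B WT against 1 in each NSD1 B KO library. Of 4 plasma cell markers 1 was higher and 2 lower (216 to 231 CPM against 170 to 174), with Sdc1 at 0, and of 3 natural killer cell markers 1 was higher and 1 lower (55.8 to 59.6 CPM against 79.7 to 79.9), with Ncr1 at 0. The part of these cells in the changes of the E2 genes was not tested.

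Of the 40 E2 genes, 10 had 0 counts in all 4 libraries. These were Ube2cbp, Ube2d2b, Ube2d4, Ube2dnl1, Ube2dnl2, Ube2e2, Ube2ql1, Ube2u, Ube2uos and Ube2v1. A count of 0 allows up to 3 counts over a genotype, a limit of 0.208 CPM for the NSD1 B WT group and of 0.215 CPM for the NSD1 B KO group. For Ube2v1 the count has a further limit: 61.5% of its exon bases are also exon of the overlapping gene Gm20431 on the same strand, which was likewise at 0, so reads there could not be assigned to either gene. Another 2 E2 genes, Ube2c and Ube2g2, were counted but stayed under the filter on low counts. The filter left 28 E2 genes for the test, of which Ube2o passed it only through NSD1 B KO. By annotation, 37 of the 40 are protein-coding. Ube2d4 and Ube2nl are processed pseudogenes and Ube2uos is an antisense RNA. Ube2cbp was taken by its symbol alone and was given no role as an E2 enzyme here.

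The E2 genes include close paralogs, and the sequence around the catalytic cysteine shows how alike and how distinct their transcripts are. The following lines give 63 coding bases from the mm10 (GRCm38) transcripts of GENCODE M21, with the codon of the cysteine that takes over ubiquitin in capitals.
Ube2d1: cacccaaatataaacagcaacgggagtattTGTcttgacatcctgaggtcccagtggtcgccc
Ube2d3: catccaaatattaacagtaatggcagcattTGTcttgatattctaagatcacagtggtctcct
Ube2e1: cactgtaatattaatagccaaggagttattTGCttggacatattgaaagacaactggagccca
Ube2e3: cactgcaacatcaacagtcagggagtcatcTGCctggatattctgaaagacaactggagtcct
Ube2a: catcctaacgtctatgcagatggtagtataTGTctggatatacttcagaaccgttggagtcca
Ube2b: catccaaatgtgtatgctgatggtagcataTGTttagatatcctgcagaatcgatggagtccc
Ube2n: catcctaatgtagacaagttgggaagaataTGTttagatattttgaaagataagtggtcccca
Ube2nl: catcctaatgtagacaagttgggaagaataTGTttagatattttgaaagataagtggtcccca
The codons lie at chr10:71258250-71258252 on the minus strand in exon 5 of Ube2d1, at chr3:135460029-135460031 on the plus strand in exon 6 of Ube2d3, at chr14:18284365-18284367 on the minus strand in exon 5 of Ube2e1, and at chr2:78918741-78918743 on the plus strand in exon 5 of Ube2e3. Those of Ube2a (chrX:36882619-36882621, plus strand) and Ube2b (chr11:51988678-51988680, minus strand) lie in exon 5 as well, that of Ube2n (chr10:95541433-95541435, plus strand) in exon 2, and that of the intronless Ube2nl (chr7:61549441-61549443, minus strand) in its exon 1. Over the whole coding sequence Ube2d1 and Ube2d3 were 77.3% identical with no run of identical bases longer than 14, Ube2e1 and Ube2e3 77.1% with none longer than 26, and Ube2a and Ube2b 77.6% with none longer than 17. A sequencing read inside the coding sequence of these genes therefore covers bases that differ between the paralogs. Ube2n and its processed pseudogene Ube2nl were 96.9% identical, with 14 differing bases of 456 and an identical run of 154 bases, and their lines above do not differ. The count of Ube2nl is uncertain for this reason.

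Among the 28 tested E2 genes some rose and others fell in NSD1 B KO, as the plots of level and of change show. Their median CPM was 54.2, against 15.4 over all tested genes, which gives their values more counts than most. A gene was called when its adjusted p was below 0.05 in the quasi-likelihood test of edgeR, adjusted by Benjamini-Hochberg, and its fold change was above 1.2. By this rule 10 E2 genes were higher in NSD1 B KO (Ube2d3, Ube2e1, Ube2e3, Ube2j1, Ube2o, Ube2q2, Ube2s, Ube2v2, Ube2w and Ube2z), 7 were lower (Ube2a, Ube2d1, Ube2d2a, Ube2g1, Ube2h, Ube2k and Ube2l6) and 11 were not past the threshold. The share called was 60.7% of the tested E2 genes, against 78.2% of all 11657 tested genes (37.1% higher and 41.1% lower). The libraries of NSD1 B KO and NSD1 B WT did not overlap in CPM for 24 of the 28, or 85.7%, against 88.1% of all tested genes. The median log2 fold change, with NSD1 B WT as the base, was 0.20 for the E2 genes and -0.10 for all tested genes, and the median size of the change without its sign was 0.76 against 1.16 on the log2 scale. A log2 change of at least 1 was reached by 4 of the higher and 3 of the lower E2 genes. The split of 10 higher and 7 lower depended on scaling and filter. It was 8 and 10 with library size alone, 9 and 9 with upper quartile scaling, 8 and 9 when every library had to reach 1 CPM, and 13 and 7 once the dependence on GC content and exon length was taken out, which by itself moved the median of all genes from -0.10 to 0.18. In RNA from bulk cells, fewer cells that express a gene and less RNA per cell cannot be told apart.

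**Figure D1:**
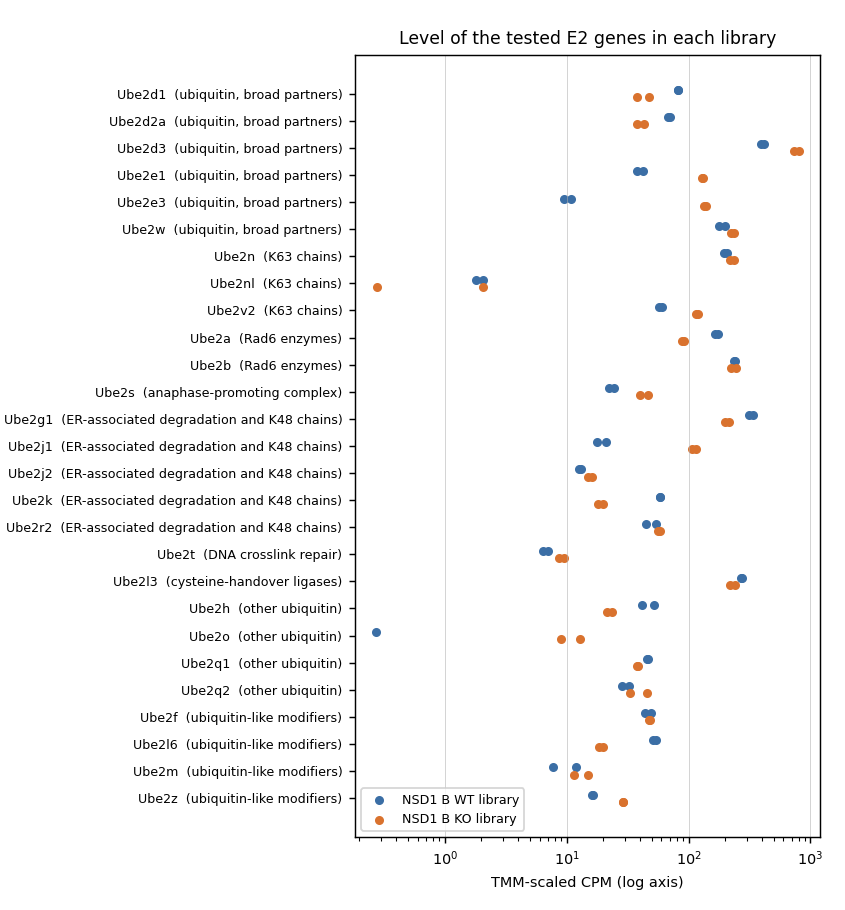
TMM-scaled CPM of 27 of the 28 tested E2 genes on a log axis, grouped by role, with 1 point per library (NSD1 B WT blue, NSD1 B KO orange). Points of 0 cannot be drawn, which leaves out NSD1 B WT replicate 1 of Ube2o, and the points of the genotypes stand farthest apart for Ube2o, Ube2e3 and Ube2j1.

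**Figure D2:**
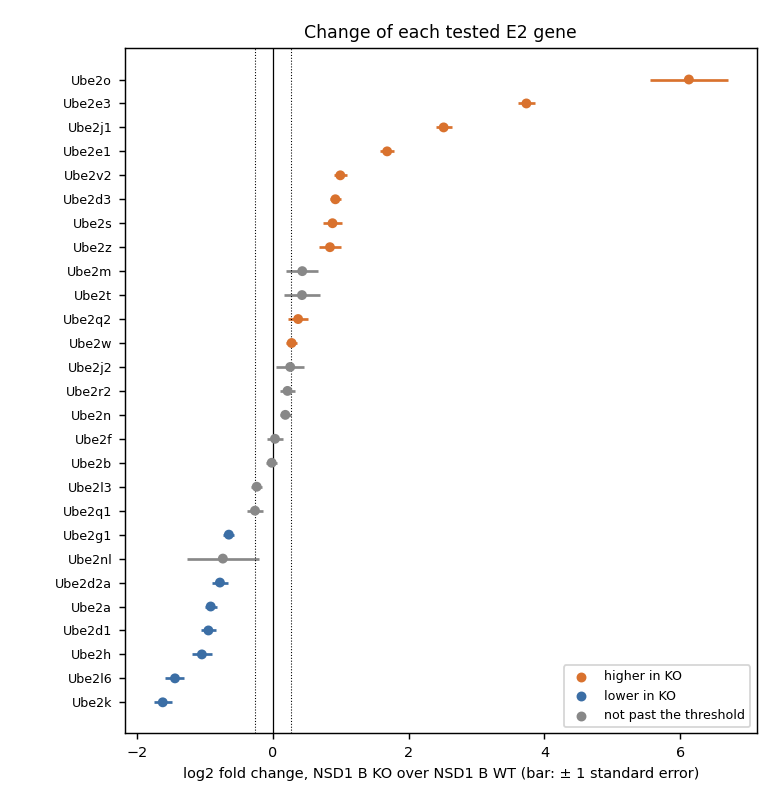
Fitted log2 fold change in NSD1 B KO relative to NSD1 B WT for 27 of the 28 tested E2 genes, with bars of 1 standard error and dotted lines at a fold change of 1.2 in either direction. Ube2o, Ube2e3, Ube2j1 and Ube2e1 lie above 1, and Ube2k, Ube2l6 and Ube2h lie below -1.

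The enzymes that work with many different ligases changed in opposite directions. All 6 tested members of this group were called, 4 higher and 2 lower, where 78.2% of all tested genes were called. Ube2e3 (ENSMUSG00000027011.14, chr2:78868124-78921293, plus strand), which carries an extension before the catalytic core, had 68 and 80 counts in NSD1 B WT against 962 and 936 in NSD1 B KO. This was 10.2 ± 1.01 CPM against 136 ± 3.85 CPM (mean ± SD, n = 2 libraries each). The Ube2e3 log2 fold change was 3.73 (SE 0.13, adjusted p = 1.57e-29), a fold of 13.3, where SE is the standard error of the fit. Its close relative Ube2e1 (ENSMUSG00000021774.13, chr14:18282722-18331859, minus strand) had 305 and 278 counts in NSD1 B WT against 944 and 861 in NSD1 B KO, or 40.4 ± 3.29 against 130 ± 2.27 CPM. The Ube2e1 log2 fold change was 1.68 (SE 0.10, adjusted p = 6.43e-20). The third gene of the group, Ube2e2, was at 0 in all 4 libraries. Per kilobase of exon, Ube2e1 stood above Ube2e3 in NSD1 B WT (9.05 ± 0.74 against 2.33 ± 0.23 CPM per kb) and just below it in NSD1 B KO (29.1 ± 0.51 against 31.1 ± 0.88 CPM per kb). This order turned with the length used, since per kilobase of the principal transcript Ube2e1 stood above Ube2e3 in NSD1 B WT (28.7 ± 2.34 against 4.55 ± 0.45 CPM per kb) and in NSD1 B KO (92.0 ± 1.61 against 60.7 ± 1.71 CPM per kb). Of the Ube2e1 exon bases, 16.1% also belong to Nkiras1 on the opposite strand, and since the strand setting of the counting is not given, reads there may be of either gene.

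The Ube2d enzymes, which serve a wide range of RING ligases, split by gene. Ube2d3 (ENSMUSG00000078578.9, chr3:135438149-135468198, plus strand) rose, with 419 and 392 CPM in NSD1 B WT against 798 and 736 in NSD1 B KO, from 2993, 2862, 5743 and 4953 counts. The Ube2d3 log2 fold change was 0.92 (SE 0.08, adjusted p = 7.16e-15). Ube2d1 fell, from 586 and 602 counts to 339 and 255, or from 82.2 ± 0.24 to 42.5 ± 6.51 CPM, with a log2 fold change of -0.95 (adjusted p = 1.38e-10, SE 0.11). Ube2d2a fell as well, from 484 and 518 counts to 310 and 253, with a log2 fold change of -0.78 (SE 0.11, adjusted p = 2.82e-08). In these 3 genes the libraries of the genotypes did not overlap, as in 88.1% of all tested genes. The coding sequences of Ube2d2a and Ube2d3 were 86.3% identical, with an identical run of at most 42 bases. The pseudogene Ube2d-ps, which the rule on symbols left out, had 148 and 145 counts in NSD1 B WT against 202 and 221 in NSD1 B KO. The relatives Ube2d2b, Ube2dnl1 and Ube2dnl2 were at 0 throughout. Ube2w, which attaches ubiquitin to the amino terminus of proteins, had 1421 and 1303 counts in NSD1 B WT against 1592 and 1585 in NSD1 B KO, and its log2 fold change of 0.28 (SE 0.08, adjusted p = 0.00255) lay just past the limit on the fold. The call of Ube2w was lost without NSD1 B WT replicate 2 (0.22) and without NSD1 B KO replicate 2 (0.23), and also with library size alone (0.20), with upper quartile scaling (0.24) and when every library had to reach 1 CPM (0.24).

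**Figure D3:**
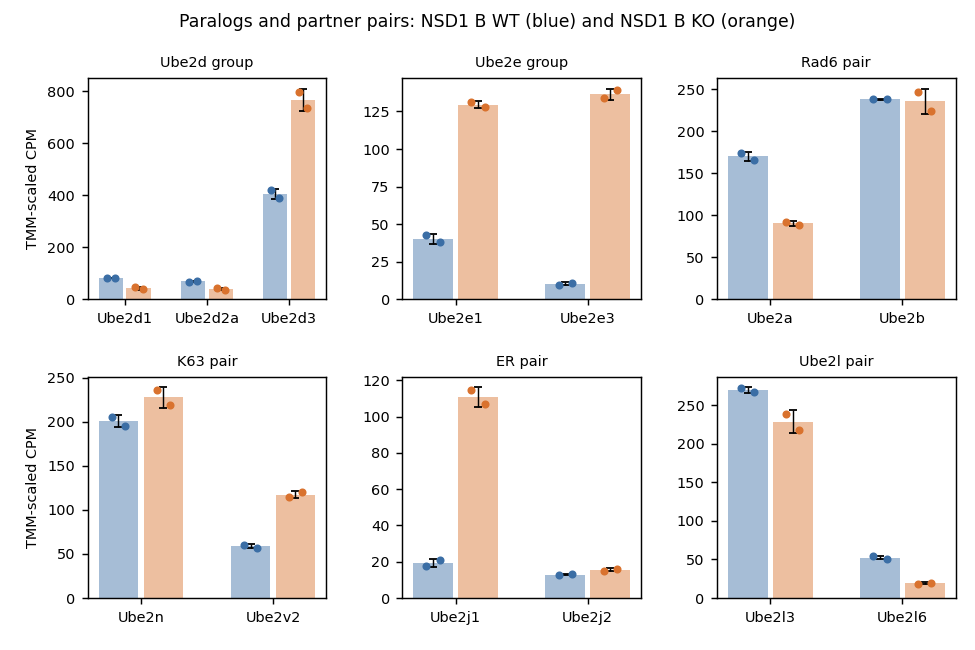
TMM-scaled CPM of E2 genes in paralog and partner groups, with points for the libraries and bars and error bars for the mean ± SD of 2 libraries (NSD1 B WT blue, NSD1 B KO orange), each panel on its own axis from 0. In the Ube2d, Rad6, K63, ER and Ube2l panels the bars of the genotypes differ by unequal amounts between genes of the same panel, and in the Ube2e panel both orange bars stand above the blue ones.

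For lysine 63 chains, Ube2n forms a pair with Ube2v1 or Ube2v2, which resemble E2 enzymes but lack the catalytic cysteine. Ube2n, the catalytic part, had 1467 and 1430 counts in NSD1 B WT against 1697 and 1477 in NSD1 B KO. At 200 ± 6.85 against 228 ± 11.5 CPM its log2 fold change was 0.18 (95% interval 0.02 to 0.35, adjusted p = 0.0377), and its fold was under the limit of 1.2. Ube2v2 (ENSMUSG00000022674.15, chr16:15552077-15595773, minus strand) had 432 and 417 counts in NSD1 B WT against 822 and 806 in NSD1 B KO. The Ube2v2 log2 fold change was 0.99 (SE 0.10, adjusted p = 7.69e-13), and both of its NSD1 B KO libraries lay above both NSD1 B WT libraries. Whether Ube2n and Ube2v2 changed by different amounts was not tested. The pseudogene Ube2nl had 13 and 15 counts in NSD1 B WT against 2 in replicate 1 and 14 in replicate 2 of NSD1 B KO. It was called lower without NSD1 B KO replicate 2 (log2 fold change -2.73) and stood at 0.10 without NSD1 B KO replicate 1. A further pseudogene of Ube2n that the rule left out, Ube2n-ps1, had 32 and 16 counts in NSD1 B WT against 10 and 25 in NSD1 B KO. Traf6, the ligase that uses Ube2n and Ube2v1 in CD40 and Toll-like receptor signalling, had 298 and 265 counts in NSD1 B WT against 0 in both NSD1 B KO libraries, which makes it at least 181-fold lower.

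Ube2a and Ube2b are the mouse forms of yeast Rad6, which attach ubiquitin to histone H2B together with Rnf20 and Rnf40 and to PCNA, the sliding clamp of DNA replication, together with Rad18. Ube2a (ENSMUSG00000016308.12, chrX:36873900-36884222, plus strand) fell, with 1244 and 1215 counts in NSD1 B WT against 662 and 595 in NSD1 B KO. The Ube2a log2 fold change was -0.91 (SE 0.09, adjusted p = 6.03e-13), from 170 ± 5.58 to 90.2 ± 2.51 CPM. Ube2b (chr11:51985497-52000762, minus strand) had 1699 and 1744 counts in NSD1 B WT against 1772 and 1511 in NSD1 B KO, and here the libraries overlapped. Its log2 fold change of -0.02 had a 95% interval of -0.18 to 0.15 (adjusted p = 0.860). The genes of their ligases moved as well. Rnf20 fell, from 440 and 414 counts to 89 and 85, with a log2 fold change of -2.24 (adjusted p = 1.24e-18). Rnf40 had 4 and 7 counts in NSD1 B WT against 120 and 81 in NSD1 B KO, a log2 fold change of 4.21. It passed the filter on low counts only through NSD1 B KO, so its call is given as a description. Rad18 had 47 and 72 counts in NSD1 B WT against 0 in both NSD1 B KO libraries, at least 38.2-fold lower. Ube2a is X-linked, and sex-linked genes differed between the genotypes: Xist had 47 and 62 counts in NSD1 B WT against 1 and 2 in NSD1 B KO, while the Y-linked Ddx3y, Eif2s3y, Kdm5d and Uty were counted in every library, 3 of them higher and 1 lower in NSD1 B KO. The lower one was Eif2s3y, at 142 and 135 CPM in NSD1 B WT against 23.5 and 27.4 in NSD1 B KO. The summed level of these 5 genes, which mixes opposite changes, was 257 to 265 CPM against 227 CPM in both NSD1 B KO libraries. Their part in the change of Ube2a was not tested.

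Of the enzymes for degradation from the ER and for lysine 48 chains, 5 of 6 were tested, with 1 higher, 2 lower and 2 not past the threshold. The share called was 60%, against 78.2% of all tested genes. Ube2j1 (ENSMUSG00000028277.13, chr4:33031416-33052363, plus strand), which is anchored in the ER membrane and acts in the removal of misfolded proteins, had 126 and 154 counts in NSD1 B WT against 825 and 719 in NSD1 B KO. At 19.3 ± 2.43 against 111 ± 5.50 CPM the Ube2j1 log2 fold change was 2.52 (SE 0.12, adjusted p = 5.82e-24), a fold of 5.72. Its relative in the same membrane, Ube2j2, had 91 and 96 counts in NSD1 B WT against 107 and 108 in NSD1 B KO, with a log2 fold change of 0.26 (95% interval -0.16 to 0.67, adjusted p = 0.250). Ube2j2 was called higher once the dependence on GC content and exon length was taken out (0.63, adjusted p = 0.00538). Ube2g1, which extends lysine 48 chains on substrates of cullin ligases, fell from 2398 and 2300 counts to 1557 and 1336 (log2 fold change -0.65, SE 0.08, adjusted p = 8.26e-10). Ube2g2, which acts in degradation from the ER, was too low to test, with 5 and 4 counts in NSD1 B WT against 13 and 9 in NSD1 B KO, a ratio of 2.54 with a 95% counting interval of 1.12 to 6.26.

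Ube2k (ENSMUSG00000029203.16, chr5:65537233-65598988, plus strand), which builds lysine 48 chains and carries a ubiquitin-binding domain, had the largest decrease of the tested E2 genes. It had 416 and 428 counts in NSD1 B WT against 131 and 133 in NSD1 B KO, with little spread inside either genotype. From 58.4 ± 0.23 to 19.0 ± 1.11 CPM, the Ube2k log2 fold change was -1.62 (SE 0.14, adjusted p = 4.72e-15). Ube2r2 serves cullin-RING ligases, as does its paralog Cdc34, which is an E2 enzyme under another symbol. Ube2r2 had 322 and 395 counts in NSD1 B WT against 423 and 379 in NSD1 B KO (log2 fold change 0.22, 95% interval -0.01 to 0.45, adjusted p = 0.0798), and it was called higher without NSD1 B WT replicate 2 (0.37) and once the dependence on GC content and exon length was taken out (0.58, adjusted p = 2.17e-05). Cdc34 had 41 and 25 counts in NSD1 B WT against 2 and 6 in NSD1 B KO. Its log2 fold change of -2.95 moved to -2.33 without NSD1 B KO replicate 1 and to -3.96 without NSD1 B KO replicate 2. Cdc34 passed the filter on low counts only through NSD1 B WT, so its call is given as a description.

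The E2 enzymes of the cell cycle were read next to a change in proliferation genes. Ube2c, which starts chains for the anaphase-promoting complex, had 2 counts in NSD1 B WT replicate 2 and 0 in the other 3 libraries, so its change could not be measured at this depth. Ube2s, which extends these chains, rose from 175 and 163 counts to 333 and 267, or from 23.4 ± 1.55 to 43.0 ± 4.66 CPM (log2 fold change 0.88, SE 0.14, adjusted p = 2.88e-07). Ube2t, which serves the repair of DNA crosslinks together with Fancl, had 50 and 47 counts in NSD1 B WT against 68 and 58 in NSD1 B KO (log2 fold change 0.43, 95% interval -0.12 to 0.97, adjusted p = 0.141). Of 12 proliferation genes (Mki67, Top2a, Ccnb1, Ccnb2, Cdk1, Bub1, Birc5, Aurka, Aurkb, Plk1, Cdc20 and Cenpa) 9 were tested, and all 9 were lower in NSD1 B KO, as were 41.1% of all tested genes. Their summed level was 151 to 156 CPM in NSD1 B WT against 21.1 to 26.0 CPM in NSD1 B KO, with Bub1 at 0 throughout. Mki67, Top2a, Ccnb1, Ccnb2, Cdk1, Aurka and Aurkb had 0 counts in both NSD1 B KO libraries. They passed the filter on low counts only through NSD1 B WT and could only be lower. Birc5 (191 and 186 counts against 88 and 71) and Cenpa (348 and 317 against 99 and 71) were counted in both genotypes. The direction of Ube2s was the opposite of that of these genes.

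For ubiquitin-like modifiers, 5 E2 genes were tested, with 1 higher, 1 lower and 3 not past the threshold. The share called was 40%, against 78.2% of all tested genes. Ube2l6 (ENSMUSG00000027078.14, chr2:84798828-84810335, plus strand), which conjugates the interferon-induced modifier Isg15 and can also carry ubiquitin, had 385 and 371 counts in NSD1 B WT against 133 and 135 in NSD1 B KO. From 52.3 ± 2.21 to 19.3 ± 1.12 CPM, the Ube2l6 log2 fold change was -1.44 (SE 0.14, adjusted p = 5.29e-13). Other genes of this modifier moved in both directions. Isg15 had 19 and 20 counts in NSD1 B WT against 0 in both NSD1 B KO libraries, at least 12.5-fold lower, and Uba7, its E1 enzyme, fell from 82 and 95 counts to 23 and 13 (log2 fold change -2.24, adjusted p = 1.19e-08). Herc6, a ligase for Isg15, rose from 110 and 118 counts to 214 and 186 (log2 fold change 0.86, adjusted p = 8.95e-06), and Usp18, a protease that removes it, rose from 33 and 60 counts to 150 and 133 (log2 fold change 1.66, adjusted p = 1.64e-08). The interferon-stimulated genes as a list moved in both directions. Of 12, among them Isg15, 9 were tested, with 5 higher and 4 lower (100% called, against 78.2% of all tested genes). The summed level of this list was 149 CPM in both NSD1 B WT libraries and 294 to 313 CPM in NSD1 B KO. Ifit3 had 160 and 175 counts in NSD1 B WT against 0 in both NSD1 B KO libraries.

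Ube2z, which receives ubiquitin from the E1 enzyme Uba6 alone, rose from 117 counts in each NSD1 B WT library to 208 and 196 (log2 fold change 0.84, SE 0.17, adjusted p = 1.15e-05). Uba6 rose with it, from 224 and 228 counts to 403 and 346 (log2 fold change 0.78, adjusted p = 2.20e-07). The E1 pair of the SUMO modifiers was lower, with Uba2 falling from 243 and 241 counts to 116 and 109 (log2 fold change -1.05) and Sae1 from 304 and 291 counts to 1 in each NSD1 B KO library, a ratio of 287 with a 95% counting interval of 79.0 to 2371. Ube2m and Ube2f carry Nedd8, the modifier that activates cullin ligases. Ube2m had 55 and 87 counts in NSD1 B WT against 107 and 78 in NSD1 B KO (log2 fold change 0.43, adjusted p = 0.0912), with overlapping libraries. Ube2m was called higher without NSD1 B WT replicate 2 (0.80), without NSD1 B KO replicate 2 (0.60) and once the dependence on GC content and exon length was taken out (0.90, adjusted p = 0.00131). Ube2f had 355 and 320 counts in NSD1 B WT against 346 and 319 in NSD1 B KO, with a log2 fold change of 0.03 and a 95% interval of -0.21 to 0.27.

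Ube2l3 passes ubiquitin to ligases that first take it over on a cysteine of their own, such as Arih1 and the Rnf31 complex. Ube2l3 had 1945 and 1952 counts in NSD1 B WT against 1720 and 1469 in NSD1 B KO. Its log2 fold change was -0.24 (95% interval -0.40 to -0.07, adjusted p = 0.00732), under the limit on the fold, and it was called lower without NSD1 B KO replicate 1 (-0.30), with library size alone (-0.32), with upper quartile scaling (-0.28) and when every library had to reach 1 CPM (-0.28). Of its exon bases 28.6% also belong to Ydjc on the opposite strand. Set beside its paralog Ube2l6, it stood at 46.2 ± 0.63 CPM per kb in NSD1 B WT against 39.2 ± 2.50 in NSD1 B KO, where Ube2l6 stood at 26.2 ± 1.11 and 9.66 ± 0.56 CPM per kb.

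The remaining enzymes include those known from red cell maturation. Ube2o (ENSMUSG00000020802.8, chr11:116537740-116581447, minus strand), a large enzyme that joins E2 and E3 activity and clears ribosomal proteins from reticulocytes, had 0 and 2 counts in NSD1 B WT against 92 and 60 in NSD1 B KO. The ratio of its counts was 78.9 with a 95% counting interval of 21.5 to 657. Since Ube2o passed the filter on low counts only through NSD1 B KO, its call had to be a difference and is given as a description, and when every library had to reach 1 CPM it was not tested. Ube2h, which also belongs to the enzymes that rise in maturing red cells, fell instead, from 294 and 380 counts to 154 and 160 (log2 fold change -1.04, SE 0.14, adjusted p = 7.98e-09). Of the Ube2h transcript windows of 100 bases, 30.4% also occur in Gm26526 or Gm2058, so its count is uncertain. The erythroid markers moved with Ube2o. Hba-a1 had 113 and 121 counts in NSD1 B WT against 7289 and 5328 in NSD1 B KO, and Alas2 had 0 in NSD1 B WT against 31 and 39 in NSD1 B KO. Their part in the change of Ube2o was not tested. Ube2q1 had 325 and 339 counts in NSD1 B WT against 273 and 260 in NSD1 B KO, and its log2 fold change of -0.26 (adjusted p = 0.0488) fell just short of the limit on the fold. Ube2q1 was called lower with library size alone (-0.34), with upper quartile scaling (-0.30) and when every library had to reach 1 CPM (-0.30). Ube2q2 had 233 and 208 counts in NSD1 B WT against 329 and 223 in NSD1 B KO, with NSD1 B KO replicate 1 well above the other 3 libraries. Of its transcript windows of 100 bases 10.5% also occur in Gm4895. Its log2 fold change of 0.37 (SE 0.14, adjusted p = 0.0175) was past the threshold. The call of Ube2q2 was lost without NSD1 B KO replicate 1 (0.12, adjusted p = 0.512) and without NSD1 B WT replicate 2 (0.29, adjusted p = 0.0929), and also with library size alone (adjusted p = 0.0540), with the Wald test of DESeq2 (adjusted p = 0.127) and with limma-voom (adjusted p = 0.149). Over all alternatives its adjusted p ran from 9.51e-06 to 0.512.

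The order of levels shifted, and what their sum did depended on the scale. The summed CPM of all E2 genes was 2745 and 2676 in NSD1 B WT against 3213 and 3044 in NSD1 B KO, while per kilobase of exon it was 600 and 590 CPM per kb against 622 and 593, a ratio of 1.02. Per kilobase of exon, Ube2b was the highest E2 gene in both genotypes, at 112 ± 0.27 CPM per kb in NSD1 B WT against 111 ± 7.20 in NSD1 B KO. In NSD1 B WT it was followed by Ube2a (74.9 ± 2.45 CPM per kb) and Ube2g1 (71.0 ± 3.24), whose ranges overlapped, and then by Ube2n (47.5 ± 1.62) and Ube2l3 (46.2 ± 0.63), which overlapped as well. In NSD1 B KO it was followed by Ube2n (53.9 ± 2.73 CPM per kb), then by Ube2w (46.3 ± 2.06) and Ube2g1 (45.3 ± 2.75), which overlapped, and then by Ube2a (39.7 ± 1.11) and Ube2l3 (39.2 ± 2.50), which overlapped too. Ube2e3 moved from place 26 to place 10 of the counted E2 genes and Ube2j1 from place 19 to place 8, and in NSD1 B KO Ube2j1, Ube2d3 and Ube2e3 had overlapping ranges between 30.1 and 32.6 CPM per kb. In the other direction Ube2k moved from place 16 to place 26 and Ube2h from place 12 to place 22. The shares of Ube2a, Ube2g1 and Ube2l6 in the sum per kilobase of exon were smaller in NSD1 B KO, and those of Ube2e3, Ube2j1, Ube2e1 and Ube2d3 were larger. The share of Ube2a was 12.8% and 12.4% in NSD1 B WT and 6.51% and 6.57% in NSD1 B KO, that of Ube2e3 0.361% and 0.423% against 4.90% and 5.34%, and that of Ube2j1 0.832% and 1.01% against 5.23% and 5.11%. These levels depend on the length used. The summed exons of Ube2d3 cover 24499 bases against 3833 in its principal transcript, and those of Ube2w 4930 against 543. With principal transcripts Ube2w was first in both genotypes, at 24.9% to 28.9% of the sum, and Ube2d3 moved from place 4 to place 2. The place of Ube2w thus rests on this short transcript. On this scale the sum was 1371 and 1321 CPM per kb in NSD1 B WT against 1541 and 1501 in NSD1 B KO, a ratio of 1.13.

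**Figure D4:**
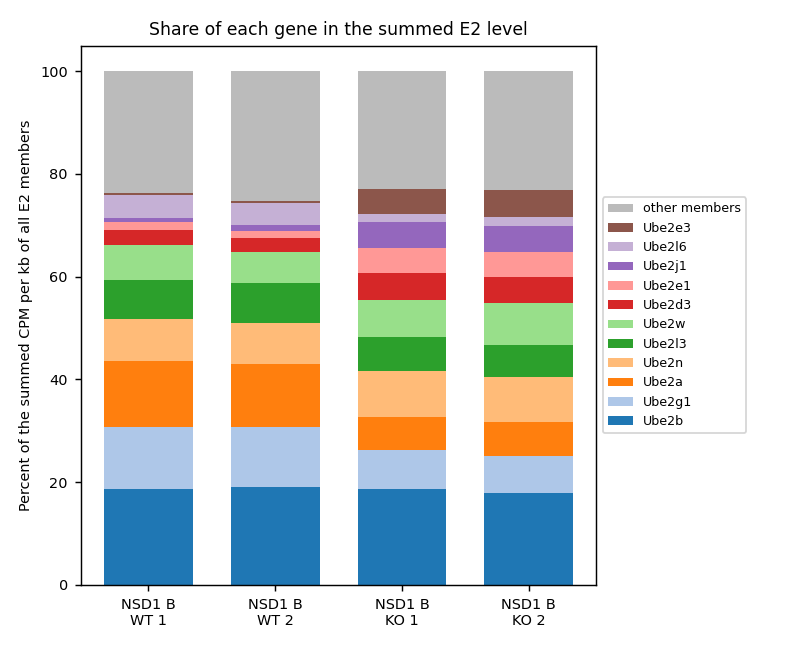
Share of each E2 gene in the summed CPM per kb of all E2 genes, as stacked percentages for each of the 4 libraries, with 11 genes in colour and the rest in grey. Ube2b holds 17.8% to 19.0% in every library, while the shares of Ube2a, Ube2g1 and Ube2l6 are smaller and those of Ube2e3, Ube2j1, Ube2e1 and Ube2d3 larger in NSD1 B KO.

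The promoters of the E2 genes, which the rule on symbols did not use, were mostly rich in GC. RefSeq (GRCm38.p6) gave the 250 bases before the start for 31 of the 40 E2 genes, in 42 windows, and for 21 of the 28 tested ones. A GC box (GGGCGG on either strand) was in 64.3% of these windows against 32.7% of all 32851 windows, and the median number of CpG was 23 against 6. A CCAAT box (CCAAT, either strand) was in 23.8% against 33.8%, and a TATA box (TATAAA, either strand) in 9.52% against 12.4%. The interferon response element searched (GAAA and GAAA with 2 free bases between them, either strand) was in the window of Ube2dnl1 and in no other E2 window, against 2.98% of all windows, and the ER stress element (CCAAT and CCACG with 9 free bases between them, either strand, so that it overlaps the CCAAT box) was in no E2 window and in 0.113% of all. The windows of the 2 higher and 2 lower genes with the largest changes that have a window follow, with GC boxes and CCAAT boxes in capitals.
Ube2j1: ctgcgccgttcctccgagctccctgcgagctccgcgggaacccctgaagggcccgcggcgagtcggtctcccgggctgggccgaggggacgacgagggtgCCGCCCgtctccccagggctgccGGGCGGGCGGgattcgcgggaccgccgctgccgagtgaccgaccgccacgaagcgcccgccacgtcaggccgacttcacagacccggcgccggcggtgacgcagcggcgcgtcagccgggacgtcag
Ube2e1: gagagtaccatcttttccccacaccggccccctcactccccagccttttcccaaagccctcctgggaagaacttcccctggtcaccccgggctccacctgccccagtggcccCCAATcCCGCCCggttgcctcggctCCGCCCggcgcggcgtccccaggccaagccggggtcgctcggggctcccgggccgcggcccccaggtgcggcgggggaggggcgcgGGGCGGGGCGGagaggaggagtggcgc
Ube2l6: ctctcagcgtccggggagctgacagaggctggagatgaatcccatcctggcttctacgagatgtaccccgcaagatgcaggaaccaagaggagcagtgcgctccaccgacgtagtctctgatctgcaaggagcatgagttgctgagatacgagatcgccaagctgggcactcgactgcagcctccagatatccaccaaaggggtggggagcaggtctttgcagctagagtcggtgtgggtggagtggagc
Ube2k: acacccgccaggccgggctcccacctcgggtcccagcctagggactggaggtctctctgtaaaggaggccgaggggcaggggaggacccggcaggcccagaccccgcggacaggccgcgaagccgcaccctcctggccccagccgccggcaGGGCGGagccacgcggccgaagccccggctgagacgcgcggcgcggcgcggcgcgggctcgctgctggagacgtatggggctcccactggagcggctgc
They lie at chr4:33031130-33031379 (plus strand), chr14:18331845-18332094 (minus strand), chr2:84798578-84798827 (plus strand) and chr5:65536995-65537244 (plus strand). The window of Ube2j1 held 3 GC boxes and 41 CpG, that of Ube2e1 4 GC boxes, 1 CCAAT box and 23 CpG, and that of Ube2k 1 GC box and 29 CpG. The window of Ube2l6 held none of the boxes searched and 11 CpG at a GC content of 58.4%, the others 75.6% to 77.2%. Such matches describe letters and not binding.

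The other genes of the pathway, from lists of 64 genes, gave 61 tested genes with 20 higher and 27 lower in NSD1 B KO, at a median log2 fold change of -0.17. The share called was 77.0%, against 78.2% of all tested genes with their median of -0.10, so it lay near the background. Of the 10 E1 enzymes, 3 were higher and 6 lower, a share of 90% called against 78.2% of all tested genes. Of these, Atg7 passed the filter on low counts only through NSD1 B KO, and Sae1 and Mocs3 only through NSD1 B WT. Besides Uba6, Uba7, Uba2 and Sae1, which are given above, Atg7, the E1 enzyme of autophagy, was at 0 in NSD1 B WT against 61 and 38 counts in NSD1 B KO, so it was at least 34.3-fold higher. Uba1, the main E1 enzyme of ubiquitin and an X-linked gene, fell from 728 and 742 counts to 607 and 431 (log2 fold change -0.45, SE 0.10, adjusted p = 1.11e-04), and this call was lost once the dependence on GC content and exon length was taken out (-0.04). Nae1, which activates Nedd8 together with Uba3, fell from 954 and 993 counts to 756 and 613, while Uba3 had 147 and 159 counts in NSD1 B WT against 176 and 142 in NSD1 B KO (adjusted p = 0.558). Mocs3, the E1 enzyme of Urm1, had 27 and 24 counts in NSD1 B WT against 8 and 9 in NSD1 B KO. Its log2 fold change was -1.52, and its call is given as a description because of the filter. This call was lost without NSD1 B WT replicate 1 (-1.39). It was also lost with the Wald test of DESeq2 (adjusted p = 0.0696, with 0.0904 the highest of any alternative).

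Of 3 tested genes for ubiquitin itself, 2 were called lower and 1 was not called, a share of 66.7% called against 78.2% of all tested genes. Ubb, which encodes a chain of ubiquitin units, had 52731 and 52447 counts in NSD1 B WT against 43063 and 36329 in NSD1 B KO (log2 fold change -0.35, adjusted p = 4.80e-05). Ubb was called lower, but once the dependence on GC content and exon length was taken out its log2 fold change was 0.07. Rps27a, which encodes ubiquitin fused to a ribosomal protein, had 5241 and 5732 counts in NSD1 B WT against 6464 and 6079 in NSD1 B KO (log2 fold change 0.25, under the limit on the fold), and it was called higher without NSD1 B WT replicate 2 (0.32), with the Wald test of DESeq2 (0.26) and once the dependence on GC content and exon length was taken out (0.28).

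Of 8 E2 enzymes and E2-like proteins under other symbols, 7 were lower and 1, Atg3, was higher, where 41.1% of all tested genes were lower and 37.1% higher. Among the lower ones, Cdc34 and Uevld passed the filter on low counts only through NSD1 B WT. Birc6, which joins E2 and E3 activity, fell from 382 and 411 counts to 78 and 95 (log2 fold change -2.14). Tsg101, an E2-like protein of the ESCRT pathway without a catalytic cysteine, fell from 916 and 993 counts to 283 and 228 (log2 fold change -1.85), and its relative Uevld had 43 and 25 counts in NSD1 B WT against 0 in both NSD1 B KO libraries, at least 21.8-fold lower. Atg10, the E2 enzyme for Atg12, fell from 312 and 315 counts to 143 and 106 (log2 fold change -1.28). Of 31 tested ligases and cofactors that work with E2 enzymes, 14 were higher and 9 lower, a share of 74.2% called against 78.2% of all tested genes. Those with a log2 change of at least 1, beyond Traf6, Rad18, Rnf20 and Rnf40, included Arih2 (68, 77, 399 and 382 counts, log2 fold change 2.48), Sharpin (127, 135, 458 and 359 counts, 1.69), Pias1 (1599, 1628, 554 and 445 counts, -1.64) and Stub1 (540, 461, 187 and 158 counts, -1.48). Arih2 takes ubiquitin from an E2 enzyme on its own cysteine, Sharpin is a part of the Rnf31 complex, Pias1 is a SUMO ligase, and Stub1 marks chaperone clients. Of 9 tested genes for ubiquitin-like modifiers 2 were higher (Nedd8 and Ubl5) and 3 lower (Sumo3, Fau and Isg15). This was a share of 55.6% called, against 78.2% of all tested genes.

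**Figure D5:**
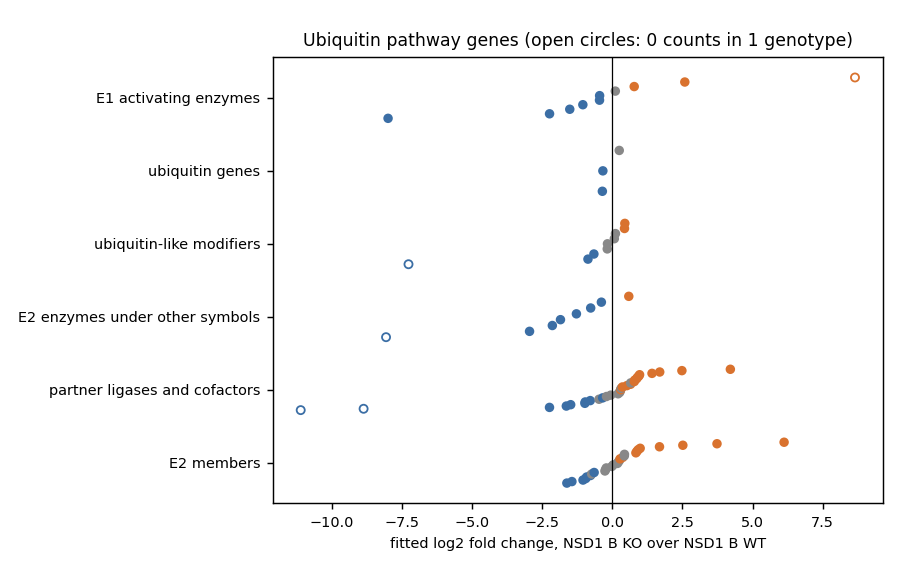
Fitted log2 fold change in NSD1 B KO relative to NSD1 B WT for every tested gene of the 5 pathway lists and for the tested E2 genes, with higher calls in orange, lower calls in blue and genes not past the threshold in grey, spread vertically within a list for legibility. Open circles mark genes without a count in 1 genotype, whose fitted value depends on the prior count of the fit, and 7 of the 8 E2 enzymes under other symbols lie below 0.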

How the data were processed

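RNA-seq libraries of B220+ splenic B cells, 2 NSD1 B WT and 2 NSD1 B KO, were grouped by their labels. For each library the authors deposited raw counts by gene, from paired-end reads aligned with Bowtie2 to mm10 according to the Methods. FPKM, which the Methods also name, was left out. Which program made the counts, with what strand setting and which annotation, is not given in the sources used here. Reads on no gene were 44.3% to 44.6% of the counted reads and stayed out of the library sizes. Counts on genes numbered 6952351, 7134170, 7566834 and 6769118 in the NSD1 B WT pair and the NSD1 B KO pair of libraries, and a higher count gives a more precise value. Intervals from counts cover counting error only.

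Genes were kept by filterByExpr (minimum count 10, minimum total 15), scaled by TMM and compared with the quasi-likelihood test of edgeR 4.0.16 in R 4.3.3 over all 11657 kept genes, with Benjamini-Hochberg adjustment and calls at adjusted p below 0.05 and a fold above 1.2. The Methods give these limits without naming an adjustment. The coefficient of variation between libraries of a genotype was 0.0735. The mean chi-square between the libraries of a genotype was 2.92 for NSD1 B WT and 3.78 for NSD1 B KO, so none was counted as a repeat of another. GENCODE M21, matched by identifier for 99.5% of the genes, gave positions and summed exon lengths for CPM per kb. Standard errors are the fitted log2 fold change over the square root of its F, and 95% intervals come from them. For genes at 0 in a genotype, folds are bounds against 3 counts over the group. Such genes passed the filter on low counts only through the other genotype, so their calls are descriptions. The script was tested on simulated data. Alternatives were other scalings, the Wald test of DESeq2 1.42.0, limma-voom 3.58.1, other filters and thresholds, each library left out, the replicate number as a block, and loess offsets (span 0.5) against GC content and exon length. With a library left out, its genotype had 1 library and the spread came from the other genotype alone. Principal transcript lengths and other scalings of the summed level were added after seeing the data.

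The members, roles and lists were chosen with earlier results of these data known. Values in every library are given by rule for called members whose mean log2 CPM reached 3, the 5 members of highest CPM per kb, and pairs of paralogs or partners. Ube2nl, Ube2o and Ube2t, and the ligases, proteases and modifiers named beside a member, fall outside it or were placed there after their values were seen. Of other pathway genes, E1 enzymes, ubiquitin genes and those called with a log2 change of at least 1 are named. The values of 1 member and of some other genes are not reported here, though they count in all totals. Marker lists were B cell, T cell, macrophage and neutrophil, erythroid, plasma cell, natural killer cell, proliferation, interferon-stimulated and sex-linked genes.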

Additional observations from a re-analysis of the deposited data

How the results depend on the processing

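Of the 17 called E2 genes, 13 kept their call and direction under all 17 alternatives and none reversed. The exceptions were Ube2o, which a filter of 1 CPM in all 4 libraries left untested, Ube2q2 and Ube2w, and Ube2z, which lost its call only at the stricter limit on p (adjusted p = 1.15e-05 against 1e-05). Of the 11 E2 genes not past the threshold, 8 passed it and 5 changed sign under at least 1 alternative. The median log2 fold change of the E2 genes, 0.20, was 0.12 with library size alone, 0.16 with a filter of 1 CPM in all 4 libraries, 0.25 after removal of the trend with exon length and GC content, 0.25 when the replicate block was added to this, and 0.13 to 0.22 with each library left out. The replicate numbers showed no pairing (r = 0.07 between same-numbered libraries), and the replicate block gave 10 higher and 7 lower E2 genes at a median of 0.20, with no call of an E2 gene changed. The ratio of the summed level per kb between NSD1 B KO and NSD1 B WT was 0.966 with library size alone and 1.13 with principal transcripts, against 1.02.

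Signs of the genes named changed as follows on the log2 scale. After removal of the trend with exon length and GC content, without and with the replicate block, Ube2q1 stood at 0.11 and 0.11 and Ubb at 0.074 and 0.071. Ube2b stood at 0.0013 with the Wald test of DESeq2 and Ube2f at -0.047 with library size alone, -0.0061 with upper quartile scaling and -0.0074 with the filter of 1 CPM. With a library left out, Ube2b ranged from -0.085 to 0.048, Ube2f from -0.038 to 0.15, Ube2nl from -2.73 to 0.10 and Uba3 from -0.0039 to 0.21. The cause of these changes was not tested. At 2 libraries a genotype, Ube2c and Ube2g2 were too low to test.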
